A study of Homo sapiens with 12 samples.

Results

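The genes described here, measured in the established human glioblastoma line U251, are 10 members of the regulator of G protein signalling (RGS) family, *RGS2*, *RGS3*, *RGS4*, *RGS5*, *RGS8*, *RGS10*, *RGS16*, *RGS17*, *RGS19* and *RGS20*, out of 45416 genes listed, and they were taken by name. *RGS4* was chosen by its measured expression, which was lower with both siRNAs against *PD-L1* in unstimulated cells, so every comparison of *RGS4* that uses unstimulated libraries is given as a description with no test. RNA-seq was available for 12 libraries in 6 conditions of 2 libraries. The siRNA was either a control (siNC) or 1 of a pair against *PD-L1*, named siPDL1-1 and siPDL1-2. Cells were then left unstimulated or were stimulated with IFNγ at 100 U/ml for 24 h, starting 48 h after transfection. All 12 libraries came from this 1 line, and no untransfected cells were among them. The numbers of reads counted on genes ranged from 17101069 in an IFNγ-stimulated siPDL1-2 library to 55657393 in an IFNγ-stimulated siNC library. Per the study's methods, the libraries came from independent experiments, and the labels do not say which library belongs to which experiment. The p-values rest on the spread between 2 libraries per condition.

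RGS proteins shorten the life of the signal that a G protein-coupled receptor starts. A ligand-bound receptor loads the G protein α subunit with GTP, and the RGS domain speeds the hydrolysis of that GTP, which returns the subunit to its inactive state with the βγ dimer. Members of the R4 subfamily are small proteins that act on α subunits of the Gi and Gq classes. *RGS4*, *RGS5* and *RGS16* encode proteins that also carry an N-terminal cysteine through which the Arg/N-degron pathway can direct them to degradation, a step that mRNA levels do not show. IFNγ signals through JAK kinases, and PD-L1, the product of *CD274*, is an immune checkpoint ligand that IFNγ induces. Of the 10 genes, *RGS2*, *RGS3*, *RGS4*, *RGS5*, *RGS8* and *RGS16* belong to the R4 subfamily. *RGS10* belongs to the R12 subfamily, and *RGS17*, *RGS19* and *RGS20* belong to the RZ subfamily, so the set is wider than R4.

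*RGS4* and *RGS5* are neighbours on chromosome 1 of GRCh38, separated by 34.3 kb, with *RGS4* on the plus strand at chr1:163068775-163076802 and *RGS5* on the minus strand at chr1:163111121-163321791. *RGS16* and *RGS8* form another pair on the minus strand of the same chromosome, 37.4 kb apart. The promoters of the 3 genes whose condition means spanned the widest ratios are shown as the 250 bases before the annotated transcription start, read from the RefSeq annotation of GRCh38.p14 and written 5′ to 3′ on the strand of the gene. Capitals mark a TATA box (TATAAA), and a sequence without capitals held no such match. The *RGS4* promoter lies at chr1:163069111-163069360 on the plus strand, that of *RGS16* at chr1:182604390-182604639 on the minus strand, and that of *RGS17* at chr6:153131283-153131532 on the minus strand.
RGS4: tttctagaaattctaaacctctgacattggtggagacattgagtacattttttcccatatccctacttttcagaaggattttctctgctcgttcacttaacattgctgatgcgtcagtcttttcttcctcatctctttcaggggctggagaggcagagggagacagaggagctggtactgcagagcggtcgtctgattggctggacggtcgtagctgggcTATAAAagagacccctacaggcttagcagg
RGS16: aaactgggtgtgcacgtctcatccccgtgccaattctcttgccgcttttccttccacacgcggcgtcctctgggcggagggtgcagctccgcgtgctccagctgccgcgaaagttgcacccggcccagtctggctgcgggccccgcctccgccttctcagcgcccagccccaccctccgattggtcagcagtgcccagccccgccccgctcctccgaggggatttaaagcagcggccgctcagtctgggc
RGS17: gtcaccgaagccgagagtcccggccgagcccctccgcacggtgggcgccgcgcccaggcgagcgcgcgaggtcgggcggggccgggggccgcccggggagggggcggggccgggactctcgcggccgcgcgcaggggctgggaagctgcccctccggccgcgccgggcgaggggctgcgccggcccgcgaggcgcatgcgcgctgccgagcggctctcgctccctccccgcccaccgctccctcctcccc

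The 3 promoters differed widely in base composition. That of *RGS4* had a GC content of 47.6% with 6 CpG dinucleotides, and 14% of the 15108 promoters in the table had a lower GC content. The *RGS16* promoter had 68.4% GC and 22 CpG dinucleotides. The *RGS17* promoter had 84.0% GC and 42 CpG dinucleotides, and 98.9% of all promoters had a lower GC content. The TATAAA in the *RGS4* promoter began 30 bases before the start, and 9.04% of all promoters held these letters. Promoters were matched for 9 of the 10 genes, and both strands were searched for 4 further motifs. These were the gamma-activated sequence TTCNNNGAA, the interferon-stimulated response element core GAAANNGAA, the AP-1 element TGANTCA and the cAMP response element TGACGTCA. The first pair can overlap through GAA, and no stretch matches both of the last pair over the same bases. None of the 9 promoters held any of these 4 motifs, which were found in 5.84%, 5.97%, 4.77% and 2.5% of all promoters, respectively. No match says only that these letters were not in this window.

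The expression values are the authors' normalized read counts relative to library size (CPM). Library comparisons were made with limma on log2 of CPM plus 1, and log2 fold changes are on that scale, which understates the change of low genes. A gene was called changed at FDR < 0.01 and fold change > 1.5, with FDR adjusted over 17148 genes in the 6 IFNγ-stimulated libraries or 17982 genes in all 12 libraries. In bulk RNA, less RNA of a gene per cell cannot be told apart from fewer cells that express it. Glial and mesenchymal markers of the line were detected in all libraries at unlike levels, with *VIM* between 3139 and 3968 CPM and *SOX2* between 108 and 213 CPM. The astrocyte markers *GFAP* and *S100B* were low, at 1.92 to 7.25 CPM and 2.40 to 5.92 CPM. Among leukocyte markers, the pan-leukocyte gene *PTPRC* was between 0.0331 and 0.176 CPM, *CD14* was at or below 0.667 CPM, and the T cell gene *CD3E* was listed at 0 in 11 libraries. *RGS5* is widely used as a marker of pericytes, and the pericyte genes *KCNJ8* and *ABCC9* were at or below 0.235 CPM, while the other mural genes of the list were expressed, with *PDGFRB* between 8.48 and 14.1 CPM, *ACTA2* between 6.15 and 27.6 CPM and *NOTCH3* between 66.8 and 149.8 CPM.

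The targeted gene, *CD274*, was lower with each siRNA. In unstimulated cells, it was at 4.60 and 4.91 CPM with siNC, 2.67 and 2.73 CPM with siPDL1-1, and 3.57 and 3.45 CPM with siPDL1-2. After IFNγ, it was at 71.2 and 76.0 CPM with siNC, 60.9 and 66.7 CPM with siPDL1-1, and 37.5 and 35.0 CPM with siPDL1-2. No library with an siRNA against *PD-L1* reached the level of an siNC library under the same stimulation. After IFNγ, the log2 fold change was −0.20 (FDR = 0.0604) with siPDL1-1, which was not called, and −1.0 (FDR = 2.79e-05) with siPDL1-2, and the difference between the siRNAs was called (0.80, FDR = 5.03e-05).

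*RGS4* had its highest level in unstimulated siNC cells and its lowest in IFNγ-stimulated siPDL1-2 cells. In unstimulated cells, it was at 73.2 and 78.3 CPM with siNC, 23.5 and 21.6 CPM with siPDL1-1, and 24.5 and 25.1 CPM with siPDL1-2. After IFNγ, it was at 22.6 and 23.6 CPM with siNC, 17.8 and 20.2 CPM with siPDL1-1, and 10.2 and 11.8 CPM with siPDL1-2. The 2 unstimulated siNC libraries stood far above the other 10. From the highest mean to the lowest, the conditions were unstimulated siNC (75.8 CPM ± 3.57, SD, n = 2), unstimulated siPDL1-2 (24.8 ± 0.401), IFNγ-stimulated siNC (23.1 ± 0.700), unstimulated siPDL1-1 (22.5 ± 1.30), IFNγ-stimulated siPDL1-1 (19.0 ± 1.72) and IFNγ-stimulated siPDL1-2 (11.0 ± 1.11). The libraries of IFNγ-stimulated siNC and unstimulated siPDL1-1 cells overlapped, and those of the other neighbours in this order did not. Behind these values were 12092 reads on *RGS4* over all libraries, from 530 in the IFNγ-stimulated siPDL1-2 condition to 4590 in unstimulated siNC.

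**Figure D1:**
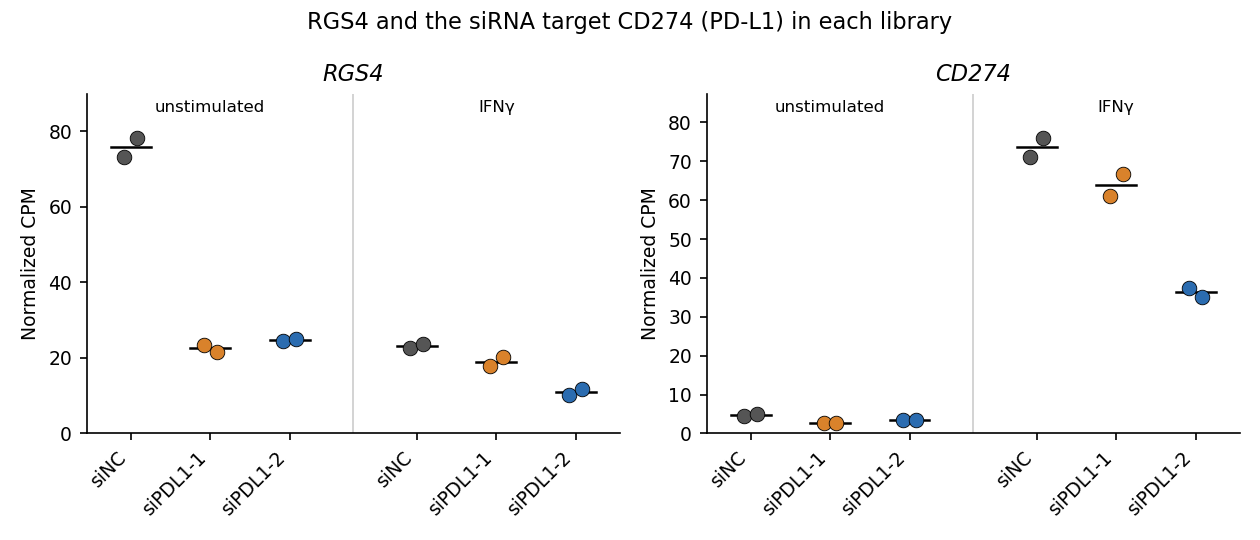
Normalized CPM of *RGS4* (left) and *CD274* (right) on linear vertical axes from 0, with 1 point per library, a bar at the mean of the 2 libraries, and the siRNA on the horizontal axis. *RGS4* sits at 73.2 and 78.3 CPM in unstimulated siNC cells and at or below 25.1 CPM in the other 10 libraries, while *CD274* is at or above 35.0 CPM only in the 6 IFNγ-stimulated libraries.

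The choice of *RGS4* rests on the unstimulated libraries, and the following values are a description. The log2 fold change against siNC was −1.71 with siPDL1-1 and −1.57 with siPDL1-2. Ordered by the fall among 17982 genes, *RGS4* was number 1 with siPDL1-1 and number 8 with siPDL1-2, and 75 genes were called lower with both siRNAs, which share the same siNC libraries. With IFNγ in siNC cells, the log2 fold change was −1.67, number 5 in the order of falls, and this comparison again uses the unstimulated siNC libraries. The log2 fold change after IFNγ was −0.24 in siPDL1-1 cells and −1.11 in siPDL1-2 cells. The difference between the siRNA effect with and without IFNγ was therefore 1.43 for siPDL1-1 and 0.56 for siPDL1-2 on the log2 scale. All of these values except the IFNγ effects within the siRNA groups rest on the 2 unstimulated siNC libraries.

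The 6 IFNγ-stimulated libraries were not used to pick *RGS4*, and there it fell with siPDL1-2. The log2 fold change against siNC was −1.01 (SE 0.0978, FDR = 1.41e-04), and both siPDL1-2 libraries were below both siNC libraries. With siPDL1-1, the value was −0.27 (SE 0.0978, FDR = 0.0615) and was not called. The libraries did not overlap those of siNC, which says little with 2 libraries per condition. Those of *RGS2* in the same comparison (FDR = 0.852) did not overlap either. The difference between the siRNAs was called, with *RGS4* higher in siPDL1-1 than in siPDL1-2 cells by 0.74 (FDR = 7.19e-04). Without the first siPDL1-2 library, which had the fewest reads of all, this difference was 0.65 (FDR = 0.0194) and was no longer called. *CD274* fell by more with siPDL1-2 than with siPDL1-1 in these same libraries. In unstimulated cells its order was the reverse, at −0.64 (FDR = 1.76e-05) with siPDL1-1 and −0.35 (FDR = 0.00183, not called) with siPDL1-2. There *RGS4* was at −1.71 and −1.57. The part of the knockdown depth in the *RGS4* values was not tested. The call with siPDL1-2 was kept under all 11 alternatives tried, with FDR between 1.74e-11 and 0.00636.

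Calls among the 10 genes with the siRNAs were then counted in the IFNγ-stimulated libraries. In those libraries, 1 of the 9 genes with enough reads was called with siPDL1-1, *RGS16*, which rose, where 5.52% of all genes tested were called. With siPDL1-2, *RGS4* was the 1 gene called of the 9, where 2.91% of all genes were called. Between the siRNAs, *RGS4* was also the 1 gene called of the 9, where 2.11% of all genes were called. Since *RGS4* was picked for its fall with both siRNAs in unstimulated cells, its calls are no result about the set. The median log2 fold change of the 9 genes was 0.11 with siPDL1-1 and −0.18 with siPDL1-2, against −0.0060 and −0.0073 over all genes.

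**Figure D2:**
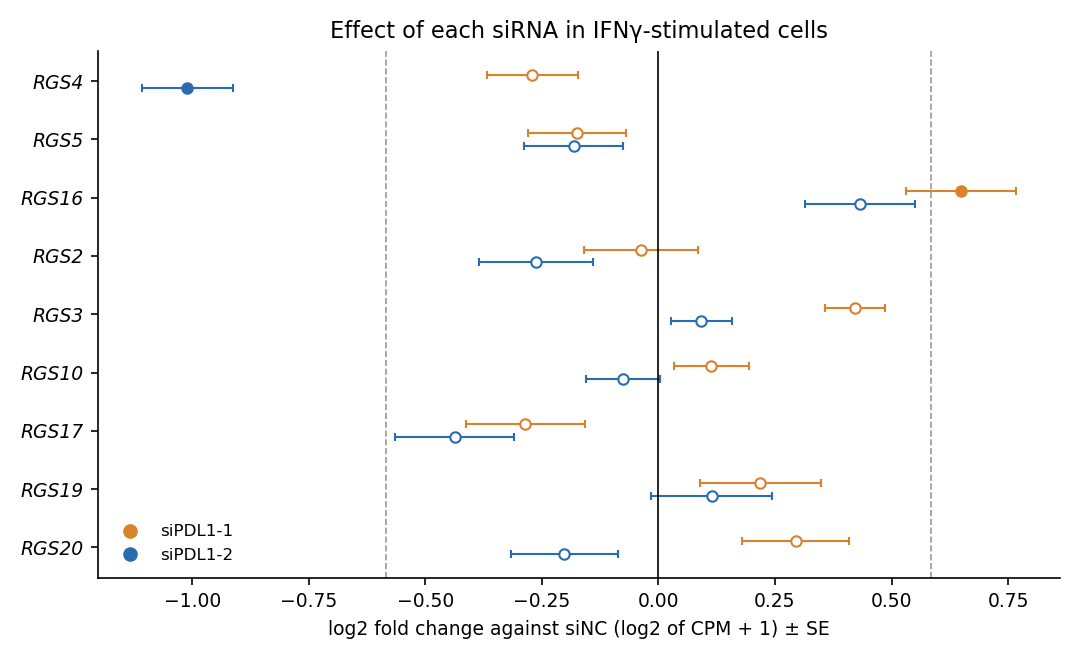
Log2 fold change of 9 RGS genes against siNC in IFNγ-stimulated cells (horizontal axis, log2 of CPM + 1, error bars SE), with siPDL1-1 in orange and siPDL1-2 in blue, filled points called and open points not called, and dashed lines at a fold change of 1.5. *RGS4* lies at −1.01 with siPDL1-2 and *RGS16* at 0.65 with siPDL1-1, and these are the filled points.

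*RGS16* encodes an R4 protein that acts on Gi and Gq subunits, and its level fell after IFNγ with siNC and with siPDL1-2. In unstimulated cells, it was at 10.9 and 11.6 CPM with siNC, 11.2 and 10.7 CPM with siPDL1-1, and 15.3 and 15.8 CPM with siPDL1-2. After IFNγ, it was at 5.64 and 5.46 CPM with siNC, 9.51 and 9.03 CPM with siPDL1-1, and 8.80 and 6.97 CPM with siPDL1-2. The IFNγ-stimulated libraries were below the unstimulated ones in each siRNA group. The log2 fold change after IFNγ was −0.90 (FDR = 3.23e-06) with siNC and −0.90 (FDR = 4.73e-06) with siPDL1-2, and it was −0.22 (FDR = 0.0972) with siPDL1-1. The difference between the responses with siPDL1-1 and siNC was 0.68 (SE 0.137, FDR = 0.0103), just outside the threshold. It was placed inside by 4 of 15 alternatives. They were edgeR (0.83), the DESeq2 Wald test (0.83), DESeq2's size factors (0.72) and leaving out the second IFNγ-stimulated siPDL1-1 library (0.72). In IFNγ-stimulated cells, *RGS16* was higher with siPDL1-1 than with siNC by 0.65 (FDR = 0.00225), a call that was lost without the first siPDL1-1 library (0.62, FDR = 0.0133). In unstimulated siPDL1-2 cells, it was higher than with siNC by 0.44 (FDR = 0.0022), below the fold threshold.

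*RGS5* encodes an R4 protein known from pericytes and smooth muscle. It was at 5.48 and 4.63 CPM with siNC, 5.83 and 5.48 CPM with siPDL1-1, and 7.52 and 7.57 CPM with siPDL1-2 in unstimulated cells. After IFNγ, it was at 6.39 and 6.70 CPM with siNC, 5.82 and 5.55 CPM with siPDL1-1, and 5.45 and 5.85 CPM with siPDL1-2. IFNγ-stimulated libraries were the higher ones with siNC and the lower ones with siPDL1-2, without overlap in either. Neither response was called, at 0.32 (FDR = 0.0176) with siNC and −0.36 (FDR = 0.0122) with siPDL1-2, whereas the difference between them was called at −0.68 (SE 0.139, FDR = 0.00211). This call was lost without the second unstimulated siNC library (−0.58, FDR = 0.0126), the second IFNγ-stimulated siNC library (−0.65, FDR = 0.0122), the first unstimulated siPDL1-2 library (−0.69, FDR = 0.010) or the second (−0.68, FDR = 0.0119), and with the DESeq2 Wald test (−0.76, FDR = 0.0141). In unstimulated cells, *RGS5* was higher with siPDL1-2 than with siNC by 0.50 (FDR = 8.70e-04), below the fold threshold, and this was called without the first siNC library (0.60). The reads were counted without regard to strand, and *NUF2*, at a mean of 45.7 CPM, lies on the opposite strand within the span of *RGS5*, but the exons of the 2 genes shared 0 bases. A lncRNA listed under an *RGS5* name overlaps on the same strand at a mean of 0.315 CPM.

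*RGS2* and *RGS3* are the remaining R4 genes with enough reads, and neither was called in any of the 10 comparisons. *RGS2*, whose product prefers Gq, was low at 2.14 to 3.39 CPM, and the span of an antisense gene at a mean of 0.905 CPM overlaps it. Reads on shared exons could not be told apart without strand, and whether the exons overlap was not checked. *RGS3*, whose product acts on Gi and Gq subunits, was at 40.0 to 58.1 CPM. It was at 41.5 and 40.0 CPM with siNC, 55.7 and 54.1 CPM with siPDL1-1 and 43.9 and 43.0 CPM with siPDL1-2 after IFNγ. Both siPDL1-1 libraries were above the other 4, and the log2 fold change against siNC was 0.42 (FDR = 8.50e-04), within the fold threshold. The same comparison in unstimulated cells gave 0.22 (FDR = 0.0036). *RGS8*, known from neurons, had 22 reads over all 12 libraries and did not pass the filter. Its highest value was 0.142 CPM, and in the 4 libraries with 0 reads, the 3 reads that a count of 0 allows correspond to between 0.0992 and 0.176 CPM. This limit covers counting error only.

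*RGS17* encodes an RZ protein that acts on Gi and Gz subunits, and it rose after IFNγ with siNC and siPDL1-1. In unstimulated cells, it was at 4.31 and 5.47 CPM with siNC, 4.52 and 4.42 CPM with siPDL1-1, and 8.91 and 9.49 CPM with siPDL1-2. After IFNγ, it was at 10.9 and 12.5 CPM with siNC, 8.17 and 10.8 CPM with siPDL1-1, and 8.39 and 8.36 CPM with siPDL1-2. The unstimulated siPDL1-2 libraries were above all other unstimulated libraries, and the IFNγ-stimulated ones were slightly below them. The log2 fold change after IFNγ was 1.12 (SE 0.124, FDR = 4.53e-06) with siNC, 0.93 (FDR = 3.35e-05) with siPDL1-1 and −0.12 (FDR = 0.504) with siPDL1-2. The difference between the responses with siPDL1-2 and siNC was −1.24 (SE 0.175, FDR = 1.80e-04), and it was called under all 15 alternatives, with values from −1.38 to −1.09. In unstimulated cells, *RGS17* was higher with siPDL1-2 than with siNC by 0.80 (FDR = 1.24e-04).

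**Figure D3:**
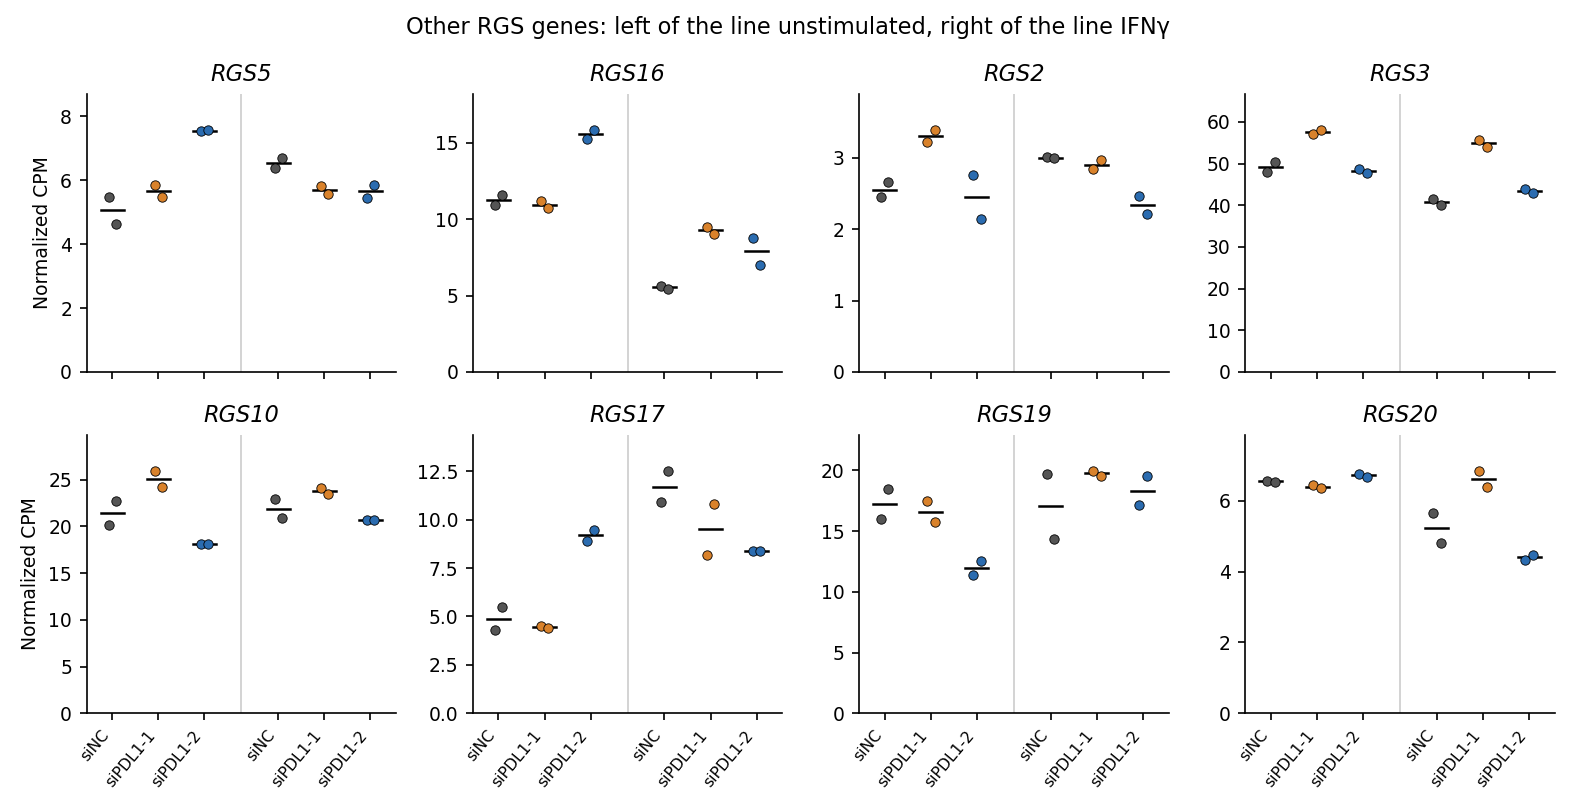
Normalized CPM of 8 RGS genes on linear vertical axes from 0, with 1 point per library, a bar at the mean of the 2 libraries, unstimulated cells left and IFNγ-stimulated cells right of the grey line, and the siRNA on the horizontal axis. *RGS16* falls from 11.2 to 5.55 CPM on average with siNC after IFNγ and *RGS17* rises from 4.89 to 11.7 CPM, while the unstimulated siPDL1-2 cells have the highest *RGS5* and *RGS16* levels, at 7.55 and 15.6 CPM.

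*RGS10*, *RGS19* and *RGS20* were not called in any of the 10 comparisons with the main test. *RGS10*, whose product acts on Gi subunits and is known from microglia, ranged from 18.1 to 25.9 CPM. *RGS19*, an RZ gene, ranged from 11.4 to 19.9 CPM, and its 2 IFNγ-stimulated siNC libraries were far apart, at 19.7 and 14.4 CPM. In siPDL1-2 cells, *RGS19* was at 11.4 and 12.5 CPM without and 17.1 and 19.6 CPM with IFNγ, a difference of 0.58 (FDR = 0.00343) just below the fold threshold of 0.585 on the log2 scale. *RGS20*, the RZ gene on chromosome 8, was at 6.76 and 6.68 CPM without and 4.34 and 4.46 CPM with IFNγ in siPDL1-2 cells, a difference of −0.52 (FDR = 9.86e-04). Neither reached a fold change of 1.5 on the log2(CPM + 1) scale, and the calls changed with that scale. The *RGS19* difference was called with edgeR (0.64), the DESeq2 Wald test (0.63), a pseudocount of 0.1 (0.61) and without the first IFNγ-stimulated siPDL1-2 library (0.67). The *RGS20* difference was called with edgeR (−0.60) and a pseudocount of 0.1 (−0.60). The *RGS19* response with siPDL1-2 differed from that with siNC by 0.61 (FDR = 0.0184), which was called without the first IFNγ-stimulated siNC library (0.82), with the DESeq2 Wald test (0.69) and with DESeq2's size factors (0.65). In unstimulated cells, *RGS19* with siPDL1-2 differed from siNC by −0.49 (FDR = 0.00584), and this was called without the first siNC library (−0.59).

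Counted over the set, IFNγ in siNC cells left 1 of the 8 genes tested higher (*RGS17*) and 1 lower (*RGS16*), where 8.12% of all genes were called. In siPDL1-1 cells, 1 of 8 was higher (*RGS17*), where 6.87% of all genes were called. In siPDL1-2 cells, 1 of 8 was lower (*RGS16*), where 5.27% of all genes were called. In unstimulated cells, 0 of 8 were called with siPDL1-1, where 4.00% of all genes were called, and 1 of 8 with siPDL1-2 (*RGS17*), where 6.17% of all genes were called. The response to IFNγ differed between siPDL1-1 and siNC for 0 of 8 genes, where 0.968% of all genes were called, and between siPDL1-2 and siNC for 2 of 8 (*RGS5* and *RGS17*), where 7.62% of all genes were called. With 8 or 9 genes, these counts are a description, and comparisons that share libraries are not independent of each other.

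**Figure D4:**
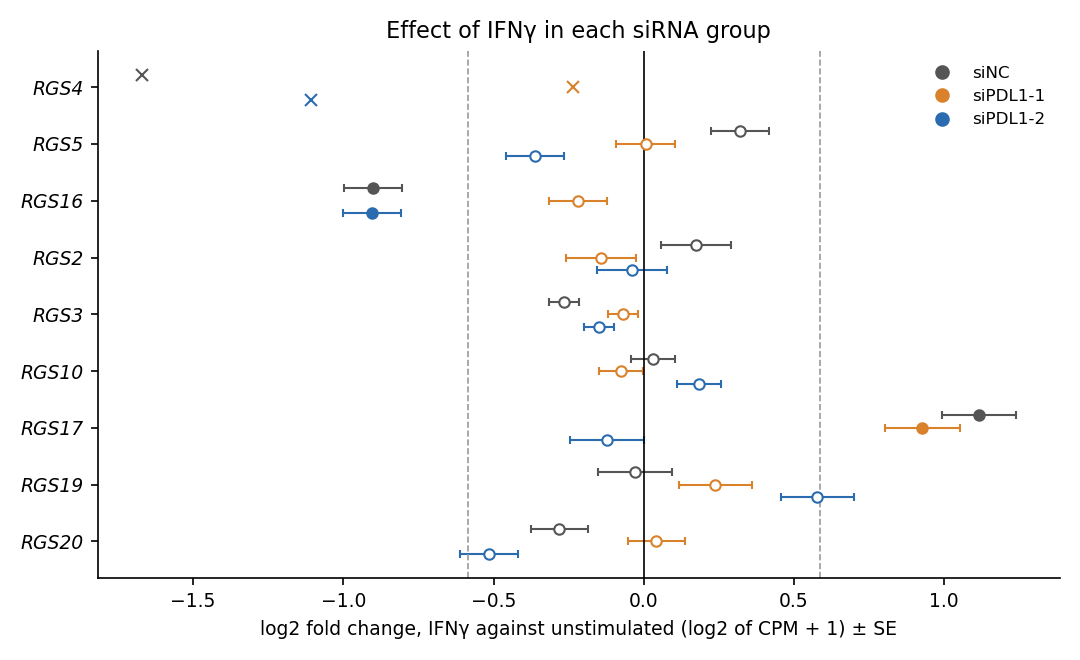
Log2 fold change of 9 RGS genes after IFNγ against unstimulated cells (horizontal axis, log2 of CPM + 1, error bars SE) with siNC in grey, siPDL1-1 in orange and siPDL1-2 in blue, filled points called, open points not called, crosses for the untested *RGS4* values, and dashed lines at a fold change of 1.5. *RGS17* lies at 1.12 and 0.93 with siNC and siPDL1-1 and at −0.12 with siPDL1-2, and *RGS16* lies at −0.90, −0.22 and −0.90.

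Levels can be compared between genes per length. Per kb of exon, *RGS4* (4.73 kb) was at 16.0 CPM in unstimulated siNC cells, against 16.8 CPM for *RGS10*, and their libraries overlapped. *RGS10* stayed between 14.2 and 19.7 CPM per kb over the conditions, whereas *RGS4* ranged from 2.32 to 16.0 CPM per kb. *RGS19* was at 5.89 to 9.74 CPM per kb, *RGS16* at 2.30 to 6.46 CPM per kb and *RGS3* at 3.10 to 4.38 CPM per kb, the last over 13.2 kb of exons that several isoforms share in part. *RGS2*, *RGS5*, *RGS17* and *RGS20* were at 0.564 to 2.10 CPM per kb. The ratio of the highest to the lowest condition mean was 6.90 for *RGS4*, 2.80 for *RGS16* and 2.62 for *RGS17*, and it was between 1.38 and 1.65 for the other 6 genes with enough reads.

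Genes near *RGS4* were examined next. Within 500 kb of *RGS4*, 5 genes averaged 1 CPM or more. They were *UAP1*, *DDR2*, *HSD17B7*, *RGS5* and *NUF2*, and the 4 besides *RGS5* were not called in any of the 10 comparisons. Between 0.968% and 8.12% of all genes were called in these comparisons, so the absence of calls among 4 genes says little. Their largest log2 fold changes were −0.54 for *DDR2* between the siRNAs and −0.51 for *NUF2* with siPDL1-1, both after IFNγ.

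The genes most like *RGS4* over the 12 libraries were named by Pearson correlation of log2 values among 11587 genes that averaged 5 CPM or more. The highest were *CYTH3* (0.977), which encodes an ARF exchange factor, *PPP1R15A* (0.967), which encodes a stress-induced regulator of eIF2α phosphatase, the DNA repair gene *RAD54L* (0.945), *PTHLH* (0.945), which encodes parathyroid hormone-related protein, and the lncRNA *PRECSIT* (0.939). The lowest were the glucose transporter gene *SLC2A3* (−0.986), *NMRK1* (−0.945) and *NDST2* (−0.939). *SLC2A3* was at a mean of 112 CPM in unstimulated siNC cells and 231 CPM in IFNγ-stimulated siPDL1-2 cells, the conditions where *RGS4* was highest and lowest. The 12 points share libraries in groups of 2 and are drawn apart by the unstimulated siNC cells, and after removal of each condition's mean the correlations ranged from −0.712 for *RAD54L* to 0.788 for *PTHLH*. Among the members, the Pearson correlation with *RGS4* ran from −0.48 for *RGS17* to 0.57 for *RGS20*. By Spearman's rho the order differed, from −0.48 for *RGS19* to 0.60 for *RGS16*, with *RGS17* at −0.13 and *RGS20* at 0.52.

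Genes related to RGS proteins were taken as 7 lists. They held other RGS family genes, G protein α subunits, β and γ subunits, effectors, receptors listed as Gi- or Gq-coupled, other G protein regulators and the Arg/N-degron pathway. IFNγ in siNC cells left 12 of the 102 genes tested higher and 2 lower (13.7%), where 8.12% of all genes were called in either direction. In the same comparison, all 12 genes of the Arg/N-degron list were tested, and 3 were higher. The median log2 fold change of this list was 0.20, against 0.0012 over all genes. *UBR2*, a ubiquitin ligase that recognizes N-degrons, rose from 72.5 to 158 CPM (1.12, FDR = 2.46e-11), and it also rose with siPDL1-1 (0.85) and siPDL1-2 (0.82). With each of these siRNAs, *UBR2* was the 1 gene called of the 12 (8.33%, against 6.87% and 5.27% of all genes). The list medians there were 0.18 with siPDL1-1 and −0.0037 with siPDL1-2. In siNC cells, *UBE2B*, which encodes a ubiquitin-conjugating enzyme that works with such ligases, rose by 0.77. *UBR1*, another such ligase, rose by 0.59 (FDR = 7.87e-07), and it fell below the fold threshold without the first unstimulated siNC library (0.585), without the second IFNγ-stimulated siNC library (0.58), and with edgeR (0.58), the DESeq2 Wald test (0.57) or DESeq2's size factors (0.56).

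Among the α subunits, 2 of 12 rose with IFNγ in siNC cells. *GNA13* went from 63.5 to 130 CPM (1.02, FDR = 8.18e-08), and *GNAQ*, the Gq subunit on which R4 proteins act, from 26.9 to 42.2 CPM (0.63, FDR = 6.62e-06), a call that was lost without the first unstimulated siNC library (0.58). No Gi subunit was called in that comparison. Of 13 β and γ subunits, 2 rose, *GNB4* (1.11) and *GNG11* (0.73). Of 24 receptors, 5 rose and 1 fell, with a list median of −0.048. Among them were the lysophosphatidic acid receptor gene *LPAR6* (1.22), the sphingosine 1-phosphate receptor gene *S1PR3* (0.97), the prostaglandin F receptor gene *PTGFR* (0.70) and the substance P receptor gene *TACR1* (−0.76). Of 17 effectors and 7 other RGS family genes, 0 were called, and of 17 other regulators 1 was called, *AXIN2*, which encodes an RGS-domain protein of the Wnt pathway (−0.62).

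With the siRNAs after IFNγ, 6 of 97 of these genes were higher and 1 lower with siPDL1-1 (7.22%, against 5.52% of all genes), and 2 were higher and 1 lower with siPDL1-2 (3.09%, against 2.91% of all genes). The 2 higher with siPDL1-2 were the adenosine receptor gene *ADORA1* (0.62, FDR = 0.00684) and the adrenergic receptor gene *ADRA1D* (0.61, FDR = 0.00724). Each lost its call under 7 of 11 alternatives, among them leaving out any of the 4 libraries compared, with values of 0.57 to 0.68 for *ADORA1* and 0.58 to 0.64 for *ADRA1D*. *GNG12*, a γ subunit gene, was the lower one in each. It was at a mean of 177 CPM with siNC, 97.1 CPM with siPDL1-1 (−0.86, FDR = 2.44e-05) and 99.6 CPM with siPDL1-2 (−0.82, FDR = 1.31e-04), and it was also lower in unstimulated siPDL1-1 cells (−0.80). *ADRA1D* was at 2.38 CPM with siPDL1-1 and 0.926 CPM with siNC (0.81, FDR = 9.11e-04). In unstimulated siPDL1-2 cells, 8 of 102 were higher and 1 lower (8.82%, against 6.17% of all genes), with *PTGFR* (1.03), *GNB4* (0.99), *GNAQ* (0.87), *UBE2B* (0.87), *LPAR6* (0.82) and *GNA13* (0.65) among the higher ones, and *ITPR3*, the gene of an inositol trisphosphate receptor, as the lower one (−0.64). In unstimulated siPDL1-1 cells, 3 were higher and 1 lower (3.92%, against 4.00% of all genes). The response to IFNγ differed between siPDL1-2 and siNC for 11 of 102 (10.8%, against 7.62% of all genes), lower in 9, and between siPDL1-1 and siNC for 0.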

How the data were processed

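Poly(A)-selected RNA of U251 cells was sequenced in 12 libraries, which were grouped by their labels. CLC Genomics Workbench was used by the authors to map reads to GRCh38 (Ensembl genes), to count them without using strand and to normalize them. The signal values are the authors' normalized CPM as deposited, 1 column per library. Divided by the worth of 1 read, 100% of the values in each library came out whole within a tolerance of 0.01, and these reads served for filtering and count tests. A single read was worth 0.0187 to 0.0586 CPM.

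The members, the gene lists and the tests were chosen with earlier results of these data known, and the gene lists were written from general knowledge. The main test was limma (trend, robust) on log2(CPM + 1), that is with a pseudocount of 1. Genes passed edgeR's filterByExpr with a minimum count of 10 and a minimum total of 15 reads, and FDR was adjusted by Benjamini-Hochberg over all of them. A fit of 3 groups held the 6 IFNγ-stimulated libraries, and the other comparisons used all 12 libraries as 6 groups. The difference between responses to IFNγ was tested as an interaction. Named genes are the members, *CD274*, the 5 genes most and the 3 least correlated with *RGS4*, and at most 4 called genes per list and comparison with the largest change and a mean of at least 1 CPM.

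*RGS5* was matched by its Ensembl identifier, since the table lists it under a numbered name, and the other 9 genes by name. Exon lengths came from GENCODE, and promoters from RefSeq. To look for duplicate libraries, replicates were compared by chi-square on reads, with means of 1.85 to 7.76 (0 for copies). The limma fits were tested on simulated data. Alternatives were edgeR's quasi-likelihood test, the DESeq2 Wald test, DESeq2's size factors, a pseudocount of 0.1, no filter, no fold threshold, the other set of libraries, a replicate block, and leaving out each library. The methods and the labels name different extraction kits and sequencing instruments, and this was left as it is. Versions were DESeq2 1.42.0, edgeR 4.0.16 and limma 3.58.1 in R 4.3.3, and matplotlib 3.10.9, pandas 2.3.3 and numpy 2.4.6 in Python 3.11.15.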

Additional observations from a re-analysis of the deposited data

Results flagged for a closer look

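The response to IFNγ differed between siPDL1-2 and siNC cells by the interaction test in limma for 2 of the 8 RGS genes tested. They were *RGS17* (−1.24, FDR = 1.80e-04) and *RGS5* (−0.68, FDR = 0.00211). The call of *RGS17* was kept under all 15 alternatives, and that of *RGS5* was lost under 5 of 15. Over all genes, 1370 of 17982 were called (7.62%), and for 1040 of these the difference was negative, as for both RGS genes. *RGS17* rose with siNC and was not called with siPDL1-2, whose unstimulated libraries were at 8.91 and 9.49 CPM. *RGS5* was higher after IFNγ with siNC and lower with siPDL1-2, at mean levels of 5.06 and 6.54 CPM with siNC and 7.55 and 5.65 CPM with siPDL1-2 without and with IFNγ.

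Over the 7 lists, the difference by the same test was called positive for 2 of 102 genes and negative for 9. This was 10.8%, against 7.62% of all genes. The 10 genes given here averaged at least 1 CPM and are named because they passed this test, so their number is no separate result. The differences were −1.18 for *GNB4*, −1.0 for *GNA13*, −0.84 for *GNAQ*, −0.78 for *GNG2*, −0.73 for *GNG12*, −1.14 for *LPAR6*, −0.95 for *PTGFR*, −0.68 for *F2RL2*, −1.07 for *UBE2B* and 0.70 for *GPSM1*. Those of *GNG2*, *F2RL2* and *GPSM1* were lost under 2, 7 and 9 of 15 alternatives, and the other 7 were kept under all 15. *RGS9BP*, named after its value was seen, also passed (0.68, FDR = 0.00807) at a mean of 0.904 CPM.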

How the results depend on the processing

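For 90 values of the RGS genes, 1062 checks were made, and the direction and call were kept in 1002 of them. A call was lost in 7 checks and gained in 15. In 9 checks, an untested *RGS4* value moved by more than the spread between libraries. In 29 checks, a value near 0 changed sign, and some values did so in more than 1 check. The *RGS16* interaction for siPDL1-2 accounts for 8 of these. None of the values that changed sign had been called. The response of *RGS10* in siNC cells became −0.0046 with edgeR, −0.012 with the DESeq2 Wald test and −0.0031 with DESeq2's size factors. The difference of the *RGS16* response between siPDL1-2 and siNC became 0.051, 0.064 and 0.036 under the same settings and 0.025 with a pseudocount of 0.1. When libraries were left out, these ranged from −0.054 to 0.12 and from −0.15 to 0.15. The others that changed sign when a library was left out were, for siPDL1-1 in unstimulated cells, *RGS16* (−0.072 to 0.0038), *RGS17* (−0.24 to 0.044) and *RGS19* (−0.15 to 0.049), for siPDL1-2 in unstimulated cells, *RGS2* (−0.18 to 0.081) and *RGS3* (−0.058 to 0.0056), for siPDL1-2 after IFNγ, *RGS19* (−0.10 to 0.33), between the siRNAs after IFNγ, *RGS5* (−0.036 to 0.050) and *RGS17* (−0.031 to 0.33), and for IFNγ, *RGS19* with siNC (−0.24 to 0.19), *RGS5* with siPDL1-1 (−0.032 to 0.044) and *RGS2* with siPDL1-2 (−0.17 to 0.089). Of 895 checks of other named genes, 812 were unchanged, 82 lost the call, 1 gained it and 0 changed sign. Apart from *CD274*, these genes were checked only in comparisons where they had been called. Gains were thus not possible for them and sign changes were unlikely, unlike for the RGS genes. The cause was not tested.

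Without the fold threshold, the genes called numbered 2692 in place of 946 for siPDL1-1 and 1659 in place of 499 for siPDL1-2 after IFNγ, 830 in place of 362 between the siRNAs, 3379 in place of 720 and 5107 in place of 1110 in unstimulated cells, 4901, 4122 and 3080 in place of 1460, 1236 and 947 for IFNγ with siNC, siPDL1-1 and siPDL1-2, and 293 and 3067 in place of 174 and 1370 for the interactions. When 1 library was left out, the count ranged from 143 to 700 for siPDL1-2 after IFNγ, from 213 to 398 between the siRNAs and from 890 to 1662 for the siPDL1-2 interaction. The counts for siPDL1-2 after IFNγ were 143 without the second siPDL1-2 library and 172 without the first, where the lone library is assumed to vary like the other groups. When pairing by replicate number was looked for, 2 of 15 group pairs had a correlation of deviations over 0.1 (−0.13 to 0.19). Correlations of differences between single libraries cannot tell whether the numbers mark the independent experiments. With the replicate block, 489 genes in place of 499 were called for siPDL1-2 after IFNγ, and all 90 values of the RGS genes kept their call. By Spearman's rho over the 12 libraries, the likeness to *RGS4* ranged from 0.73 (*PTHLH*) to 0.94 (*PRECSIT*) for the 5 genes most like it and from −0.92 (*SLC2A3*) to −0.78 (*NMRK1*) for the 3 least like it. Within conditions, the correlations of *CYTH3* and *SLC2A3* with *RGS4* were 0.10 and −0.058. Depth limits *RGS8*, for which no difference was detectable, and 2 libraries per condition limit every p-value.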
